A study of Mus musculus with 17 samples.

Results

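The genes of glycolysis and the pentose phosphate pathway were examined in the thymus of mice that lack the transcription factor Tcf1. Some of these mice had no tumor and others had a thymic lymphoma. The set holds 32 genes, taken by name for the textbook step that each serves: glucose and lactate transporters, glycolytic enzymes, regulators of the pathway and enzymes of the pentose phosphate branches. It was chosen with earlier results of these data known, so counts and medians over it are a description and not an independent test. Of these, 29 had a probe set that carried their symbol alone, and 28 passed a filter on signal (at least 4 of the 17 arrays with a value over the 40th percentile), as did 13756 of 18194 genes in all. Eno2, the neuronal enolase, did not pass and lay between 3.64 and 4.16 on the log2 scale in all 17 mice. Gpi1, Eno1 and G6pdx were not analysed here. The 3 groups were thymi of 5 C57Bl/6 Tcf1+/- mice (wt/ΔVII), of 4 Tcf1-/- mice (ΔVII/ΔVII) without a tumor and of 8 Tcf1-/- mice (ΔVII/ΔVII) with a thymic lymphoma. All 17 mice thus carried the ΔVII allele at least once, in every cell type, and no wild-type thymus was included. The ages of single mice were not given in the sources used here, and the mice without tumors were described only as similar in age to those with tumors. RNA came from homogenized thymus of individual mice, so fewer cells of a type and less RNA per cell cannot be told apart. The transcript of the targeted gene was not analysed here.

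In glycolysis, glucose enters the cell through transporters, is trapped as glucose 6-phosphate by hexokinases and is split by aldolase into triose phosphates, which are turned into pyruvate with a gain of ATP. Lactate dehydrogenase turns pyruvate into lactate, which leaves the cell through monocarboxylate transporters. The pentose phosphate pathway branches off at glucose 6-phosphate, where its oxidative branch yields NADPH and its non-oxidative branch interconverts sugars that feed nucleotide synthesis. Dividing thymocytes and T-cell tumors are known for their high use of glucose, whereas resting double-positive thymocytes use little.

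Signals are given as log2 values after Robust Multichip Average (RMA), which is meant to give every array nearly the same spread of probe signals. In the deposited values the spread still differed between arrays. Each group was compared to each other group with limma, and a gene was called at a Benjamini-Hochberg adjusted p under 0.05 over all genes tested. The arrays of control mice 1 and 2 and of tumor mice 1 and 2 stood apart from the other 13: their interquartile range was 2.93 to 3.06 compared to 3.49 to 3.75, and their 3' minus 5' signal of Gapdh was 1.12 to 2.63 compared to −0.13 to 0.96. No Tcf1-/- thymus without tumor lay in this set of 4, so values within each array set are given beside the comparison of lymphomas with controls. Y-linked genes had signal in 4 of the 5 controls, in all 4 Tcf1-/- thymi without tumor and in 2 of the 8 tumors. The pan-T-cell genes of the thymocyte list were present in all mice, and the list had a mean signal of 12.24 to 12.61 in Tcf1+/- mice, 11.07 to 11.68 in Tcf1-/- mice and 10.94 to 12.16 in lymphomas. Of all genes tested, 10.1% were called higher and 4.7% lower in Tcf1-/- compared to Tcf1+/- thymus, 8.49% and 4.21% in lymphomas compared to Tcf1+/- thymus, and 6.34% and 8.35% in lymphomas compared to Tcf1-/- thymus. With each array's median subtracted, the higher calls went from 68.2% to 43.2% of all calls in the Tcf1-/- comparison, from 66.9% to 59.7% in lymphomas compared to controls, and from 43.2% to 65.1% in lymphomas compared to Tcf1-/- thymus; after quantile normalization they were 53.4%, 51.7% and 45.7%.

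Thymic lymphomas had higher signal than Tcf1+/- thymi for part of the genes in several segments of the pathways. Called were 2 of 4 genes of glucose uptake and phosphorylation, 1 of 6 of upper and 3 of 4 of lower glycolysis. Ldha, 1 of 2 oxidative and 1 of 3 non-oxidative pentose phosphate genes were also called. In 13 fits that each left out a mouse, the call of Ldha stood in 2 and that of Pgls in 3. Without the 4 arrays that stand apart, Slc2a3, Pgk1, Pgam1, Ldha and Pgls were not called. Of the 28 genes, 9 were called higher (32.1%, compared to 8.49% of all genes) and 0 lower (compared to 4.21%); at an unadjusted p under 0.05, 1 was lower. The median log2 fold change of the 28 genes was 0.43, compared to 0.06 over all genes. The 9 were Slc2a3 and Hk2 of glucose uptake and phosphorylation, Tpi1 of upper glycolysis, Pgk1, Pgam1 and Pkm of lower glycolysis, Ldha, and Pgls and Tkt of the pentose phosphate pathway. The 2 groups did not overlap for 4 of the 28 genes (14.3%), compared to 6.67% of all genes. In the same comparison 6 of 11 thymocyte, 3 of 7 dendritic cell, 2 of 4 NK cell, 1 of 9 B cell, 1 of 8 thymic epithelial, 1 of 7 fibroblast and 1 of 6 skeletal muscle markers were called lower. Thy1 is in both the thymocyte and the fibroblast list and was counted in each. Of the B cell and the erythroid markers 1 each was called higher, and of 12 macrophage and monocyte markers 0 were called. The part of these cell types in the counts was not tested.

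**Figure D1:**
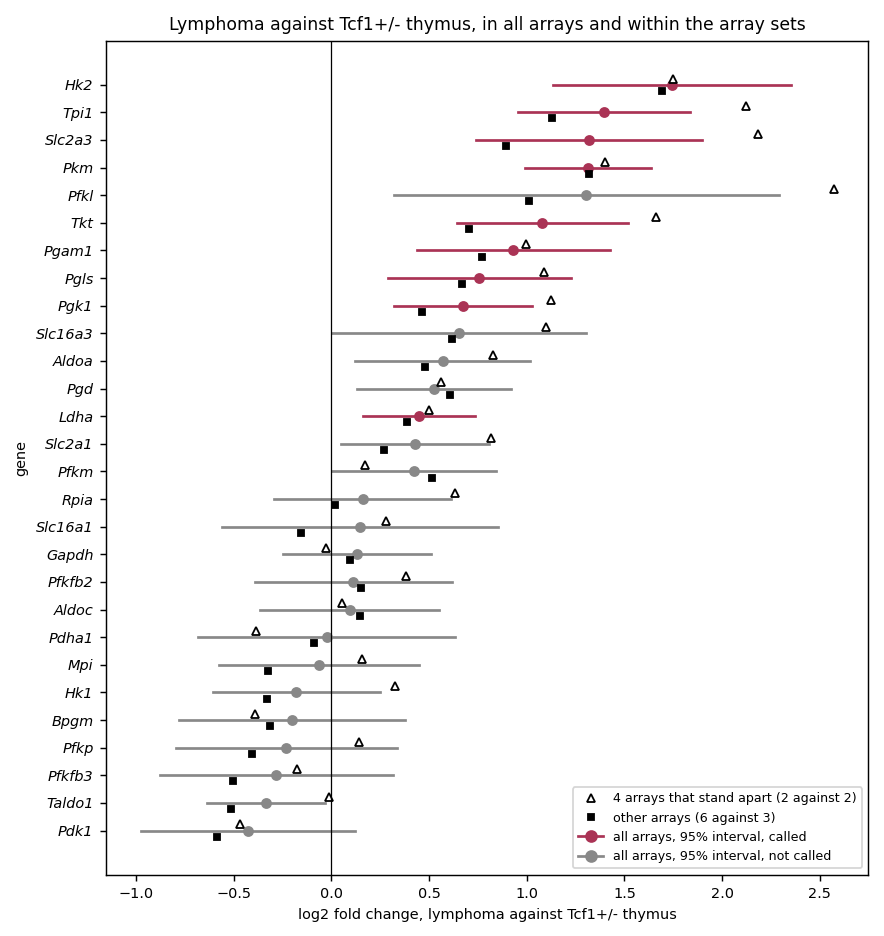
Log2 fold change of 28 glycolysis and pentose phosphate genes in lymphomas (n = 8) compared to Tcf1+/- thymus (n = 5). Circles and lines are the estimate and 95% interval over all arrays, red where called, and triangles and squares are the same difference within the 4 arrays that stand apart and within the others. Of the 9 genes called, Hk2, at 1.74, had the largest estimate, and Pfkl had the widest distance between the array sets, 2.57 compared to 1.01.

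Of the 4 genes of glucose uptake and phosphorylation, Hk2, the inducible hexokinase of proliferating cells, had the largest difference in signal between lymphomas and controls. Its signal was 6.68, 6.98, 6.96, 7.11 and 7.12 in Tcf1+/- mice 1 to 5, 7.99, 8.34, 8.28 and 8.07 in Tcf1-/- mice 1 to 4, and 7.25 at the lowest, 8.91 at the median and 9.29 at the highest in the lymphomas. All 8 lymphomas were above all 5 controls, and the lowest of them, tumor 5, was also below every Tcf1-/- thymus. The rise in lymphomas was 1.74 ± 0.28 (log2, SE), or 3.35-fold (limma adjusted p = 0.00161), with 1.75 within the set of 4 arrays and 1.69 within the others. Slc2a3, the high-affinity glucose transporter of neurons and activated lymphocytes, rose by 1.32 ± 0.27, or 2.49-fold (limma adjusted p = 0.00615), and was above the highest control in 7 of 8 lymphomas. Its difference was 2.18 within the set of 4 arrays and 0.89 within the others, where it did not pass the test (limma adjusted p = 0.0894), and a second bright probe set of the gene gave a difference of 1.51, whereas 2 dim ones gave −0.09 and −0.06. Hk1, the housekeeping hexokinase, was 9.73 ± 0.10 (SD, n = 5) in controls and 9.55 ± 0.43 (SD, n = 8) in lymphomas (limma adjusted p = 0.665).

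Slc2a1, the widely expressed glucose transporter, did not pass the test in any of the 3 comparisons. Its signal was 8.43, 8.36, 8.50, 8.62 and 8.59 in Tcf1+/- mice 1 to 5 and 9.53, 8.82, 8.92 and 8.69 in Tcf1-/- mice 1 to 4. The lymphomas ranged from 8.27 over a median of 8.92 to 9.40, and tumor 5 alone was below all controls. The difference between lymphomas and controls was 0.43 ± 0.18 (limma adjusted p = 0.138), and it passed without tumor 5 (0.52, limma adjusted p = 0.0306). All 4 Tcf1-/- thymi were above all 5 controls, by 0.49 ± 0.18 on average (limma adjusted p = 0.113).

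**Figure D2:**
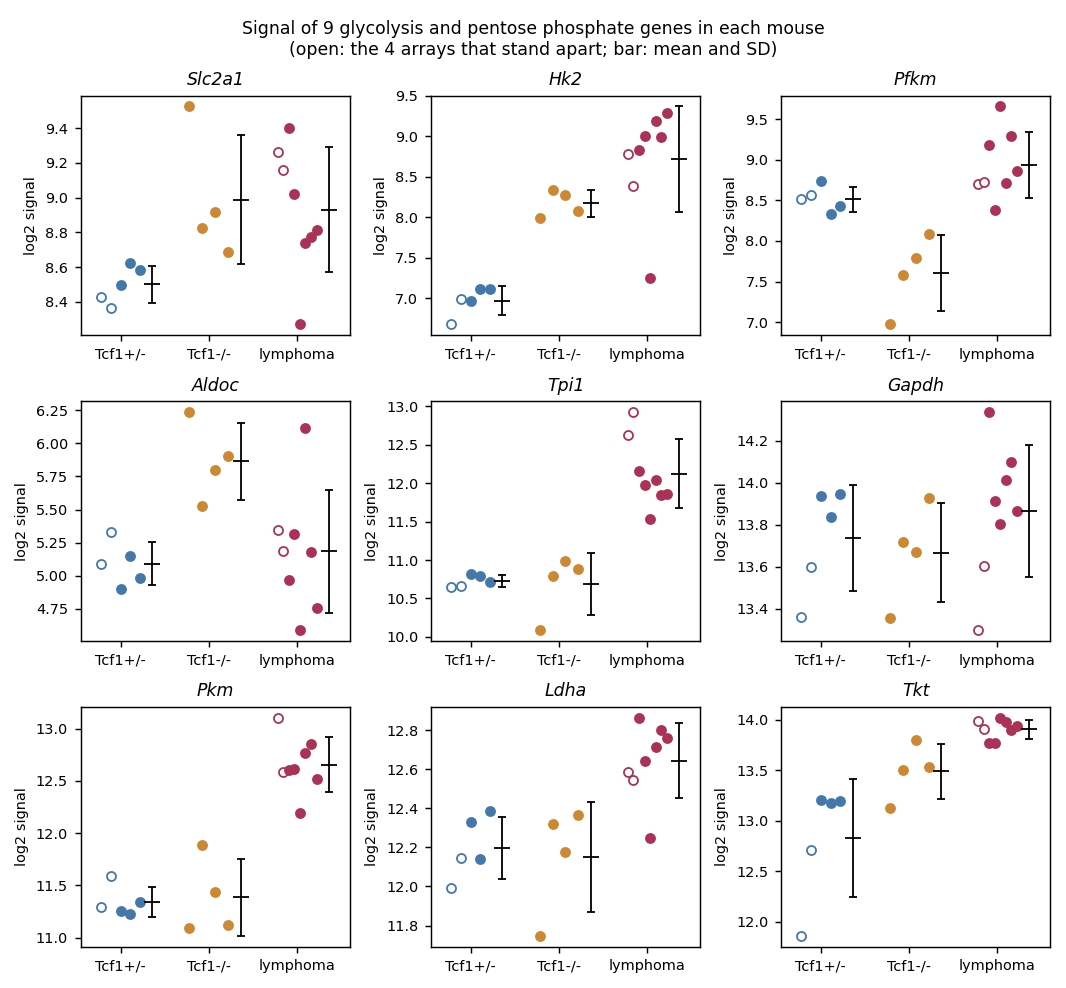
Log2 signal (vertical axis of each panel) of 9 genes in the thymus of Tcf1+/- mice (n = 5), Tcf1-/- mice (n = 4) and mice with lymphoma (n = 8). Each circle is a mouse, open circles are the 4 arrays that stand apart, and the black mark and bar are the mean and SD. The lymphomas lie above both other groups without overlap for Tpi1 and Pkm, whereas Gapdh overlaps between all 3 groups.

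Of the 6 upper glycolysis genes, 1 was called higher in lymphomas than in controls. Tpi1, the triose phosphate isomerase, was 10.65, 10.66, 10.82, 10.79 and 10.71 in Tcf1+/- mice 1 to 5 and 10.09, 10.79, 10.99 and 10.89 in Tcf1-/- mice 1 to 4. In lymphomas it was 11.53 at the lowest, 12.01 at the median and 12.92 at the highest, so every tumor was above every thymus without a tumor. It rose by 1.40 ± 0.21 compared to controls, or 2.63-fold (limma adjusted p = 0.000755), by 2.12 within the set of 4 arrays and by 1.13 within the others, and its 2 further probe sets gave 1.33 and 1.69. Pfkl, the liver-type phosphofructokinase of the committed step, was 11.24 and 11.76 in tumors 1 and 2 and between 8.79 and 9.92 in the other 6 tumors, compared to 8.26 to 8.95 in controls. Its mean difference of 1.31 ± 0.46 did not pass over the arrays of both groups (limma adjusted p = 0.0812). It passed with all 17 arrays in a single fit (limma adjusted p = 0.0454), without the 4 arrays (1.01, limma adjusted p = 0.0327), within them (2.57, limma adjusted p = 0.00227), without tumor 5 (1.46, limma adjusted p = 0.0489), with the array set as a block (1.53, limma adjusted p = 0.00165) and with mouse number as replicate block (1.60, limma adjusted p = 0.0245). In the same mice without the replicate block, Pfkl did not pass (limma adjusted p = 0.11). The second Pfkl probe set also separated tumors 1 and 2, at 10.25 and 10.77, from the other 6, at 8.30 to 9.21.

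The other upper glycolysis genes did not pass the test in lymphomas compared to controls. Pfkm, the muscle-type phosphofructokinase, differed by 0.42 ± 0.20 (limma adjusted p = 0.192) and Pfkp, the platelet type, by −0.23 ± 0.26 (limma adjusted p = 0.676). Aldoa, the main aldolase, differed by 0.57 ± 0.21 (limma adjusted p = 0.0955), with 7 of 8 lymphomas above the highest control. It passed without tumor 4 (0.68, limma adjusted p = 0.0195), the lymphoma with the lowest signal, and with the array set as a block (0.60, limma adjusted p = 0.0448). Aldoc, the brain aldolase, differed by 0.09 ± 0.21 (limma adjusted p = 0.86).

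In lower glycolysis, 3 of 4 genes were called higher in lymphomas. Pkm, the pyruvate kinase gene of muscle, tumor and most other tissues, was 11.29, 11.59, 11.25, 11.23 and 11.34 in Tcf1+/- mice 1 to 5 and 11.09, 11.89, 11.44 and 11.12 in Tcf1-/- mice 1 to 4. The lymphomas ranged from 12.19 over a median of 12.61 to 13.10 and did not overlap with either group. Pkm rose by 1.31 ± 0.15 compared to controls, or 2.48-fold (limma adjusted p = 0.000127), with 1.40 and 1.32 within the 2 array sets, and it kept its call in all 28 alternatives run. The probe set does not tell the M1 and M2 isoforms apart. Pgam1, which moves the phosphate of phosphoglycerate, rose by 0.93 ± 0.23, or 1.91-fold (limma adjusted p = 0.0168), and Pgk1, the first ATP-yielding enzyme of the pathway, by 0.67 ± 0.17, or 1.60-fold (limma adjusted p = 0.0164). Neither passed without the 4 arrays that stand apart (0.77 and 0.46, limma adjusted p = 0.0652 and 0.132), and Pgam1 did not pass without control mouse 1 (0.80, limma adjusted p = 0.0503).

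Gapdh, the dehydrogenase of the same segment that often serves as a loading reference, did not pass the test in any comparison. It was 13.36, 13.60, 13.94, 13.84 and 13.95 in Tcf1+/- mice 1 to 5 and 13.35, 13.72, 13.67 and 13.93 in Tcf1-/- mice 1 to 4. The lymphomas ranged from 13.30 over a median of 13.89 to 14.34, and the lowest values of both the control and the tumor group came from the set of 4 arrays. The difference between lymphomas and controls was 0.13 ± 0.18 (limma adjusted p = 0.736), with a 95% interval from −0.25 to 0.51. These values are from the 3' control probe set of Gapdh. The 5' probe set gave −0.34, and its signal was 10.67 to 12.48 in the set of 4 arrays and 12.91 to 14.37 in the others.

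Ldha, the lactate dehydrogenase subunit of glycolytic tissues, was 11.99, 12.14, 12.33, 12.14 and 12.39 in Tcf1+/- mice 1 to 5 and 11.75, 12.32, 12.18 and 12.37 in Tcf1-/- mice 1 to 4. The lymphomas lay between 12.25 and 12.86, with a median of 12.68, and 7 of 8 were above the highest control. The rise was 0.45 ± 0.13 compared to controls, or 1.36-fold (limma adjusted p = 0.0414). Of 13 fits that each left out a mouse, the call stood in 2, those without tumor 2 or tumor 5, and was lost in the others at estimates between 0.40 and 0.49 (limma adjusted p = 0.0519 to 0.104). It was also lost with the replicate block (0.38, limma adjusted p = 0.146) and without the 4 arrays that stand apart (0.39, limma adjusted p = 0.128). Slc16a1, the proton-linked monocarboxylate transporter of most cells, differed by 0.15 ± 0.33 (limma adjusted p = 0.856), and Slc16a3, the lactate exporter of glycolytic cells, by 0.65 ± 0.30 (limma adjusted p = 0.194). Slc16a3 passed with the replicate block (0.82, limma adjusted p = 0.0467) but not in the same mice without the block (limma adjusted p = 0.228). It also passed with the array set as a block (0.78, limma adjusted p = 0.0183), and was 4.34 to 6.33 in lymphomas compared to 4.21 to 5.03 in controls.

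Of the 4 regulators tested, 0 were called in lymphomas compared to controls with limma, and 0 had an unadjusted p under 0.05. Pdk1, the kinase that inhibits pyruvate dehydrogenase and so keeps pyruvate out of mitochondria, differed by −0.43 ± 0.26 (limma adjusted p = 0.341), and its 3 further probe sets gave −0.67, −0.87 and −1.18. It passed as lower with the array set as a block (−0.55, limma adjusted p = 0.02) and with the mean of all probe sets (−0.79, limma adjusted p = 0.0179). Pdha1, a subunit of pyruvate dehydrogenase, differed by −0.02 ± 0.31. The bifunctional enzymes Pfkfb2 and Pfkfb3, which set the level of the phosphofructokinase activator fructose 2,6-bisphosphate, differed by 0.11 ± 0.23 and −0.28 ± 0.28. Limma adjusted p was 0.979, 0.843 and 0.617 for these 3 genes.

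In the pentose phosphate pathway, 1 gene of the oxidative and 1 of the non-oxidative branch were called higher in lymphomas. Tkt, the transketolase of the non-oxidative branch, was 11.86, 12.71, 13.21, 13.18 and 13.20 in Tcf1+/- mice 1 to 5 and 13.13, 13.50, 13.80 and 13.54 in Tcf1-/- mice 1 to 4. The lymphomas were close to each other, from 13.77 over a median of 13.92 to 14.02, and all were above the controls, of which mice 1 and 2 were the lowest. Tkt rose by 1.08 ± 0.20, or 2.11-fold (limma adjusted p = 0.00405), by 1.66 within the set of 4 arrays and by 0.70 within the others, and kept its call in all 29 alternatives run. Pgls, the lactonase of the oxidative branch, rose by 0.76 ± 0.22, or 1.69-fold (limma adjusted p = 0.0353), but of 13 fits that each left out a mouse it was called in 3, those without tumor 3, 4 or 5, and lost in the others (limma adjusted p = 0.0514 to 0.0853). It was also lost with the replicate block (0.60, limma adjusted p = 0.102) and without the 4 arrays (0.67, limma adjusted p = 0.127). Pgd, the second NADPH-yielding enzyme, differed by 0.53 ± 0.18 (limma adjusted p = 0.0799) and passed with the array set as a block (0.59, limma adjusted p = 0.00732). It also passed with the replicate block (0.47, limma adjusted p = 0.0468) but not in the same mice without the block (limma adjusted p = 0.251). The isomerase Rpia differed by 0.16 ± 0.21 and the transaldolase Taldo1 by −0.33 ± 0.14 (limma adjusted p = 0.729 and 0.147), and 5 of 8 lymphomas were below the lowest control for Taldo1. Of the side branches, Mpi, which leads to mannose, differed by −0.06 ± 0.24, and Bpgm, which makes the 2,3-bisphosphoglycerate of red cells, by −0.20 ± 0.27 (limma adjusted p = 0.926 and 0.734).

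**Figure D3:**
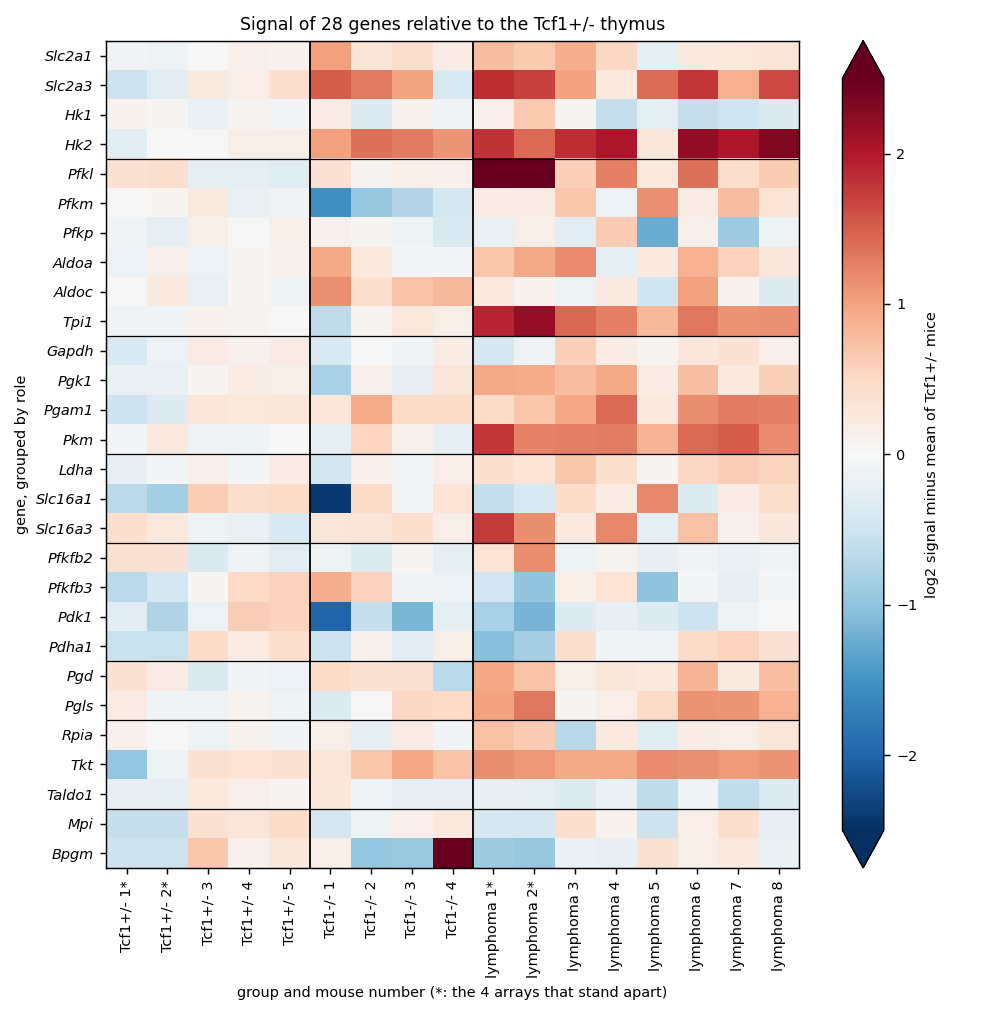
Log2 signal of 28 genes (rows, grouped by role, lines between roles) in 17 mice (columns; asterisks mark the 4 arrays that stand apart), minus the mean of the 5 Tcf1+/- mice. Colors run from −2.5 to 2.5, and values beyond take the end color. Tumors 1 and 2 stand out for Pfkl, tumor 5 for its low Hk2 and Tcf1-/- mouse 4 for Bpgm, whose signal there is 12.1.

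The lymphomas differed from each other in how many of the 28 genes exceeded the highest control. The number was 18 in tumors 2 and 6, 17 in tumor 1, 16 in tumor 7, 15 in tumor 8, 13 in tumor 3, 12 in tumor 4 and 9 in tumor 5, compared to 9 to 11 in the Tcf1-/- thymi without tumor. The share of all genes above the highest control was not counted for each mouse. These numbers are therefore not read as a trait of the 28 genes. Tumor 5 also had the lowest mean over the 28 genes of all tumors, 9.76, which lay within the range of Tcf1-/- thymi, whereas the other 7 tumors had means from 10.06 to 10.22. Its mean over 42 DNA replication and S-phase genes was likewise the lowest of the tumors, 10.03, and its mean over 49 oxidative phosphorylation subunit genes the highest, 12.14.

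The mean log2 signal of the 28 genes per mouse was 9.64 ± 0.14 (SD, n = 5) in controls, 9.75 ± 0.10 (SD, n = 4) in Tcf1-/- thymi and 10.08 ± 0.14 (SD, n = 8) in lymphomas. The difference of 0.45 between lymphomas and controls was 0.69 within the set of 4 arrays and 0.31 within the others, and controls 1 and 2, at 9.46 and 9.51, were the lowest mice of all. The mean of the S-phase genes differed by 0.39 in the same comparison, by 0.67 and 0.19 within the 2 array sets. The part of S-phase signal in the difference of the 28 genes was not tested.

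**Figure D4:**
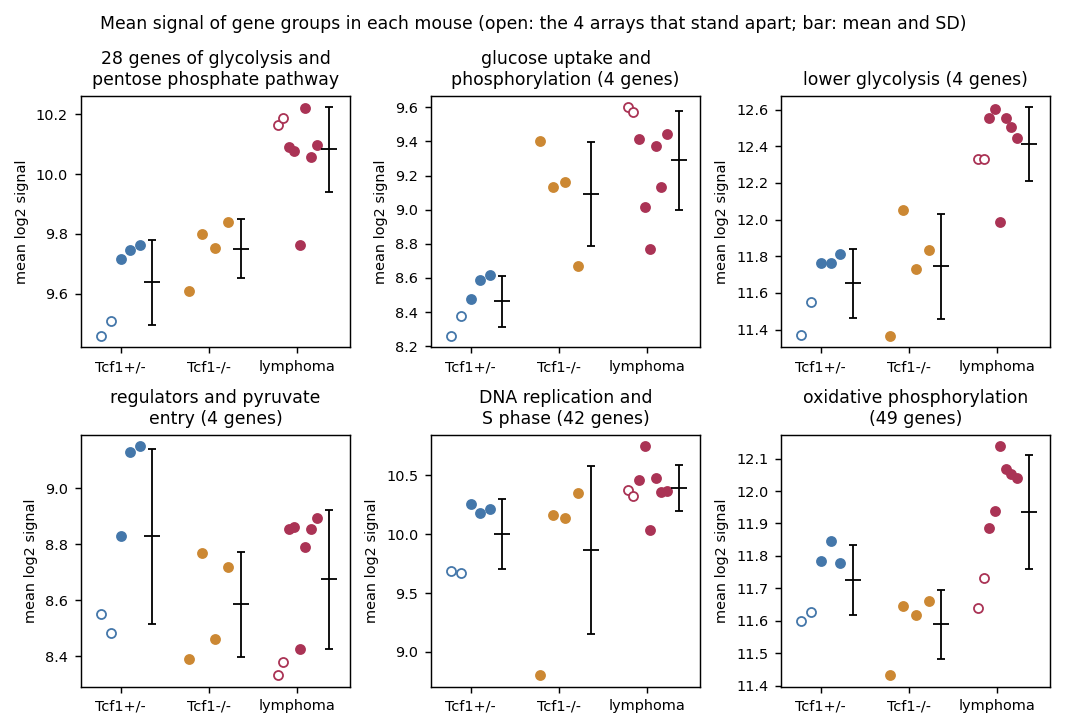
Mean log2 signal (vertical axis) over the genes of a group in each mouse, for all 28 genes, 3 of their roles and 2 other gene lists. Open circles are the 4 arrays that stand apart, and the black mark and bar are the mean and SD of 5, 4 and 8 mice. The lower glycolysis mean is higher in 7 of 8 lymphomas than in any mouse without a tumor, and tumor 5, at 11.99, lies below Tcf1-/- mouse 2, at 12.05.

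To place the genes called in lymphomas beside sequence, the RefSeq promoter windows (GRCm38.p6, 250 bases before to 50 after the start) were searched on both strands for ACGTG, the core bound by hypoxia-inducible factors, for CACGTG, the E-box bound by Myc and its partners, which contains the former, and for CTTTGA, a core of TCF/LEF sites. ACGTG was found for 5 of 8 called genes with a window, for 10 of 19 genes not called, and for 21.8% of 27025 genes in all. CACGTG was found for 1 of 8 and 4 of 19, compared to 8.09% of all genes, and CTTTGA for 2 of 8 and 4 of 19, compared to 18.2%. The stretches before the start that hold ACGTG or its reverse complement in capitals are shown for these 5 genes. Before the start, Hk2, Ldha and Pgk1 held it at more than 1 place. The Pkm window shown held 2 matches, 1 of them before the start. No window was given for Slc2a3, and none of the 3 others, Tpi1, Tkt and Pgls, held ACGTG. A match is a description of the letters only.
Hk2, minus strand, chr6:82774490-82774692: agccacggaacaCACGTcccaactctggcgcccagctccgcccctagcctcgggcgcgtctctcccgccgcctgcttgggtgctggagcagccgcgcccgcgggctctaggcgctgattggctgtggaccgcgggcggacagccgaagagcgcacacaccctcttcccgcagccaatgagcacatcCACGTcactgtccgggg
Ldha, plus strand, chr7:46845647-46845786: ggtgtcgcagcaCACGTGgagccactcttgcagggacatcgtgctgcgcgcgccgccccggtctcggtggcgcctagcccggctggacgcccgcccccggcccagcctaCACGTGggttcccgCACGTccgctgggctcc
Pgk1, plus strand, chrX:106186938-106186985: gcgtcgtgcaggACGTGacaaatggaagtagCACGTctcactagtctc
Pgam1, plus strand, chr19:41911745-41911773: cgctccttgcttACGTGcgctccgtgact
Pkm, plus strand, chr9:59657140-59657168: ctccgatccggtCACGTccgcgccgcagc

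Tcf1-/- thymus without a tumor was compared to Tcf1+/- thymus next, where Hk2 and Aldoc were higher and Pfkm was lower. Of the 28 genes, 2 were called higher (7.14%, compared to 10.1% of all genes) and 1 lower (3.57%, compared to 4.7%), and the groups did not overlap for 4 (14.3%, compared to 17.3% of all genes). With counts this small, the shares were near those of all genes, and the median log2 fold change was 0.03, compared to −0.01 over all genes.

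Hk2 was higher in all 4 Tcf1-/- thymi than in all 5 controls, by 1.20 ± 0.15, or 2.30-fold (limma adjusted p = 0.00064). Aldoc was 5.09, 5.33, 4.90, 5.15 and 4.98 in Tcf1+/- mice 1 to 5 and 6.23, 5.53, 5.80 and 5.90 in Tcf1-/- mice 1 to 4, whereas the lymphomas ranged from 4.59 over a median of 5.18 to 6.12. The groups without tumor did not overlap, and the rise was 0.77 ± 0.17, or 1.71-fold (limma adjusted p = 0.0121). A second, dimmer probe set of Aldoc gave a difference of 0.05, and the call was lost with the mean of all probe sets (0.41, limma adjusted p = 0.11). Aldoc also lost its call with the replicate block (0.75, limma adjusted p = 0.0976). Pfkm was 8.52, 8.56, 8.74, 8.33 and 8.43 in Tcf1+/- mice 1 to 5 and 6.97, 7.58, 7.79 and 8.08 in Tcf1-/- mice 1 to 4, while the lymphomas were 8.38 at the lowest, 8.79 at the median and 9.66 at the highest. All Tcf1-/- thymi without tumor were thus below all mice of both other groups, and Pfkm fell by 0.91 on the log2 scale (SE 0.22, limma adjusted p = 0.017). Pfkm lost its call without Tcf1-/- mouse 2 (−0.90, limma adjusted p = 0.0527) and with the replicate block (−0.93, limma adjusted p = 0.0681).

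Of the genes not called, Slc2a3 was above the highest control in 3 of 4 Tcf1-/- thymi and differed by 0.86 ± 0.37 (limma adjusted p = 0.17). It passed without Tcf1-/- mouse 4 (1.27, limma adjusted p = 0.00722), the mouse with the lowest signal of its group. Pdk1 differed by −0.99 ± 0.39 (limma adjusted p = 0.133) and passed as lower with the array set as a block (−1.33, limma adjusted p = 0.0364). Without control mice 1 and 2, whose arrays stand apart, Pfkl and Slc16a3 passed as higher (0.43 and 0.53, limma adjusted p = 0.0345 and 0.0191). Slc16a1 was 8.96 in Tcf1-/- mouse 1 and 11.30 to 11.84 in the other 3. In the same mouse the S-phase mean was 8.80, compared to 10.14 to 10.35 in the others.

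Markers of other cell types moved with this comparison. All 12 macrophage and monocyte markers were called higher in Tcf1-/- thymi, with a mean of 8.88 to 10.91 compared to 6.72 to 7.83 in controls and 5.86 to 8.42 in lymphomas. Of the B cell markers, 7 of 9 were called higher, with a mean of 9.23 to 10.88 compared to 7.0 to 7.47 in controls and 6.42 to 7.73 in lymphomas. NK cell markers (3 of 4 higher, mean 6.78 to 8.27 compared to 5.44 to 6.04 in controls), dendritic cell markers (5 of 7 higher, 6.96 to 8.40 compared to 6.46 to 6.69), granulocyte markers (2 of 7 higher, 7.55 to 11.6 compared to 6.64 to 8.74) and fibroblast markers (4 of 7 higher and 1 lower, 6.83 to 7.33 compared to 6.10 to 6.26) moved the same way, while 8 of 11 thymocyte markers were called lower. Thy1 was counted in both the fibroblast and the thymocyte list. Of thymic epithelial, endothelial, adipocyte and skeletal muscle markers, 0 of 8, 1 of 5, 1 of 3 and 0 of 6 were called higher, and 1 of the muscle markers lower. Their part in the results of Hk2, Aldoc and Pfkm was not tested.

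Bpgm was 12.1 in Tcf1-/- mouse 4 and 8.02 to 9.13 in the other 3 Tcf1-/- thymi, and its 2 further probe sets gave 11.87 and 11.56 in this mouse. Alas2, the enzyme that opens heme synthesis in red cells, was 13.3 in the same thymus and 7.0 to 9.96 in the other 3, and Slc4a1, the anion exchanger of the red cell membrane, was 8.52 and 4.92 to 6.72 (both named after their values were seen). The mean of the 7 erythroid markers measured was 5.24 to 6.85 in Tcf1-/- thymi, 5.22 to 5.82 in controls and 5.18 to 6.00 in lymphomas, and the hemoglobin gene Hba-a1 was at or under 4.65 in all mice. Of 6 erythroid markers tested, 0 were called between Tcf1-/- and Tcf1+/- thymus. The part of red cell RNA in the Bpgm signal was not tested.

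Compared to Tcf1-/- thymus without a tumor, 4 of 28 genes were called higher in lymphomas (14.3%, compared to 6.34% of all genes) and 0 lower (compared to 8.35%); at an unadjusted p under 0.05, 1 was lower. The groups did not overlap for 3 genes (10.7%, compared to 10.7% of all genes). The median log2 fold change was 0.38, compared to 0.10 over all genes. The lymphomas and the comparison groups are shared between comparisons, so the calls are given side by side: Tpi1, Pkm and Pgk1 were called in lymphomas compared to each of the other groups, and Hk2 was called in both Tcf1-/- groups compared to controls. Of the 28 genes, 11 were called in at least 1 comparison and 17 in none.

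Tpi1 rose by 1.43 ± 0.26, or 2.70-fold (limma adjusted p = 0.00244), and Pkm by 1.27 ± 0.19, or 2.41-fold (limma adjusted p = 0.000759), each with all 8 lymphomas above all 4 Tcf1-/- thymi. Pfkm rose by 1.33 ± 0.25, or 2.52-fold (limma adjusted p = 0.0035), and also did not overlap. With the replicate block, Pfkm lost its call (1.14, limma adjusted p = 0.0861). Pgk1 rose by 0.81 ± 0.23, or 1.76-fold (limma adjusted p = 0.0284), and lost its call without Tcf1-/- mouse 1 (0.59, limma adjusted p = 0.119) or mouse 3 (0.80, limma adjusted p = 0.0765). The call of Pgk1 was also lost without the 4 arrays that stand apart (0.73, limma adjusted p = 0.056) and with the replicate block (1.04, limma adjusted p = 0.0861). With the Y-linked signal as a covariate, only the call of Pkm was kept among these 4; the estimates of Tpi1, Pfkm and Pgk1 were 1.34, 0.94 and 1.01 (limma adjusted p = 0.0841, 0.178 and 0.126).

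Several genes called in lymphomas compared to controls did not pass the test compared to Tcf1-/- thymi. Ldha differed by 0.49 ± 0.16 (limma adjusted p = 0.0554) and Tkt by 0.42 ± 0.14 (limma adjusted p = 0.0603), which passed without Tcf1-/- mouse 3 (0.52, limma adjusted p = 0.045). Hk2 differed by 0.54 ± 0.32 (limma adjusted p = 0.277) with 7 of 8 lymphomas above the highest Tcf1-/- thymus. Without tumor 5, Hk2 passed (0.75, limma adjusted p = 0.0156), as did Ldha (0.55, limma adjusted p = 0.0284). Aldoc differed by −0.68 ± 0.25 (limma adjusted p = 0.0828), with 7 of 8 lymphomas below the lowest Tcf1-/- thymus, and passed as lower without tumor 6 (−0.81, limma adjusted p = 0.0181). In the same comparison 10 of 12 macrophage and monocyte markers and 8 of 9 B cell markers were called lower, as were 6 of 7 granulocyte, 4 of 4 NK cell, 6 of 7 dendritic cell, 3 of 8 thymic epithelial and 2 of 5 endothelial markers. Of the thymocyte, erythroid and skeletal muscle markers 1 each was called higher. Their part in these differences was not tested.

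Genes that serve the same step were set against each other within each mouse, as a description. The log2 signal of Hk2 minus that of Hk1 was −3.14 to −2.58 in controls, −1.92 to −1.07 in Tcf1-/- thymi and −2.26 to 0.05 in lymphomas, without overlap between controls and the other groups. Pfkm minus Pfkl was −0.39 to 0.42 in controls, −1.94 to −0.60 in Tcf1-/- thymi and −3.03 to 0.86 in lymphomas, where tumors 1 and 2 were the lowest and tumor 5 the highest. Pfkp minus Pfkl was 0.34 to 1.40 in controls, 0.44 to 0.94 in Tcf1-/- thymi and −2.09 to 0.34 in lymphomas, with the highest lymphoma just above the lowest control. Slc2a3 minus Slc2a1 was −0.31 to 0.49 in controls and −0.12 to 1.79 in lymphomas, and Aldoc minus Aldoa was −5.76 to −5.40 and −6.84 to −5.07. Slc16a3 minus Slc16a1 was −5.65 and −5.66 in controls 1 and 2 and −7.62 to −7.41 in the other 3 controls, so that the array sets differed within this group. Pfkfb3 minus Pfkfb2 was −0.19 to 1.72 in controls and −1.30 to 1.14 in lymphomas. A difference between probe sets shows unequal change and not which gene has more transcript.

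**Figure D5:**
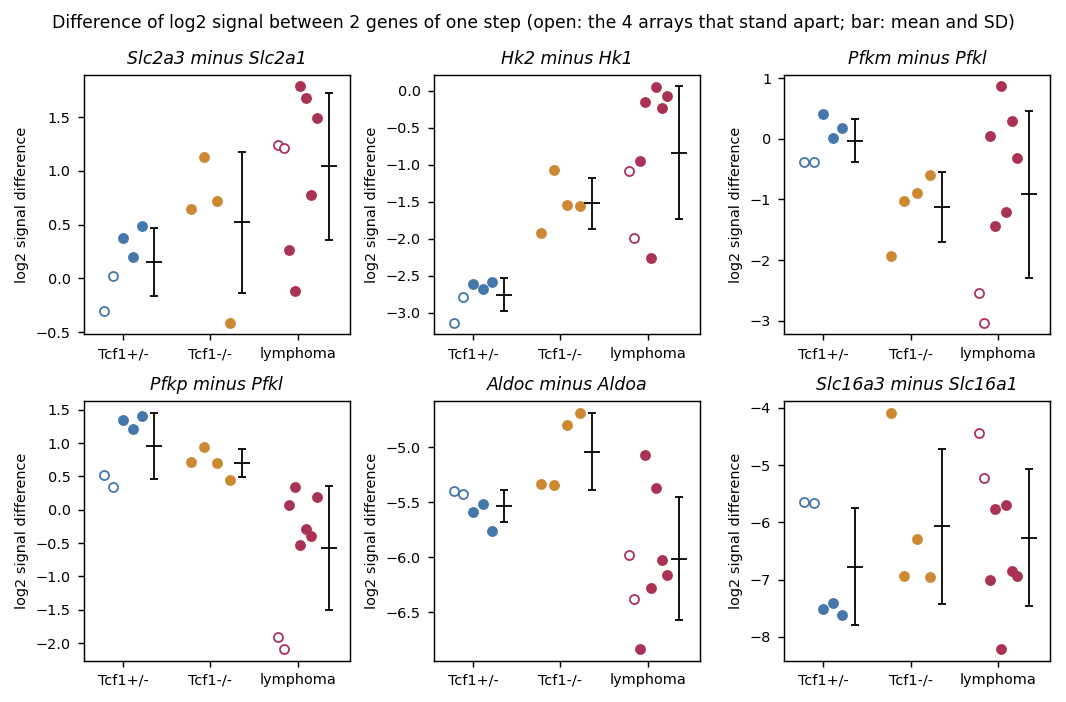
Difference in log2 signal between 2 genes that serve the same step (vertical axis) in each mouse of the 3 groups, for 6 pairs. Open circles are the 4 arrays that stand apart, and the black mark and bar are the mean and SD of 5, 4 and 8 mice. Hk2 minus Hk1 is higher in every Tcf1-/- thymus and every lymphoma than in every control.

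Further genes of the pathways, isozymes and regulators outside the 32, were counted in the same way. Of 39 tested, 3 were called higher and 1 lower in lymphomas compared to controls, where 8.49% and 4.21% of all genes were. Of the 28 genes, 9 were called higher and 0 lower there, so the larger share of higher calls was not seen in these further genes. In Tcf1-/- thymi compared to controls, 6 were called higher and 1 lower, where 10.1% and 4.7% of all genes were. In lymphomas compared to Tcf1-/- thymi, 1 was called higher and 0 lower, where 6.34% and 8.35% of all genes were. The median log2 fold change of the 39 genes was 0.18, 0.18 and 0.04 in these 3 comparisons. That of the 28 genes was 0.43, 0.03 and 0.38, and that of all genes 0.06, −0.01 and 0.10. Fbp1, the gluconeogenic fructose bisphosphatase, was higher by 4.82 ± 0.58 in lymphomas and by 4.49 ± 0.61 in Tcf1-/- thymi (limma adjusted p = 0.000183 and 0.000999). Pgam2, the muscle mutase, was higher by 3.23 ± 0.85 in lymphomas and by 0.92 ± 0.16 in Tcf1-/- thymi (limma adjusted p = 0.0224 and 0.00349). It was 5.57 and 5.56 in tumors 4 and 5, within the 5.16 to 5.75 of controls, and 8.77 to 11.43 in the other tumors. Pdk2, a further pyruvate dehydrogenase kinase, fell by 1.06 in lymphomas compared to controls (limma adjusted p = 0.00499). Ldhb, the lactate dehydrogenase subunit of oxidative tissues, fell by 2.46 in Tcf1-/- thymi compared to controls (limma adjusted p = 0.00524) and higher by 1.74 in lymphomas compared to Tcf1-/- thymi (limma adjusted p = 0.0268).

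Of 18 hypoxia response genes tested, 4 were called higher and 0 lower in lymphomas compared to controls, with a median log2 fold change of 0.11. In this comparison 8.49% of all genes were called higher and 4.21% lower, with a median of 0.06. The 4 were Epas1, an oxygen-regulated transcription factor subunit, by 3.34, Adm, a vasodilator peptide, by 1.64, the collagen prolyl hydroxylase subunit P4ha1 by 0.89, and Ankrd37 by 0.73 (limma adjusted p = 0.000372, 0.045, 0.00648 and 0.0348). Epas1 was also called higher in Tcf1-/- thymi compared to controls (2.09, limma adjusted p = 0.000441). It did not pass in lymphomas compared to Tcf1-/- thymi (1.25, limma adjusted p = 0.102), where Ankrd37 alone of the list was called (1.37, limma adjusted p = 0.0023). Adm was 5.63 and 6.17 in tumors 4 and 5, compared to 5.41 to 6.38 in controls, and reached 9.37 in lymphomas. Of 42 DNA replication and S-phase genes, 10 were called higher and 0 lower in lymphomas compared to controls, with a median of 0.41. Among them were the primase subunits Prim2 and Prim1, by 0.98 and 0.92, and the polymerase subunit Pold1, by 0.91 (limma adjusted p = 0.00308, 0.00417 and 0.0168). Of 49 oxidative phosphorylation subunit genes, 6 were called higher and 0 lower compared to controls, with a median of 0.23, and 15 higher and 0 lower compared to Tcf1-/- thymi, with a median of 0.35. In the latter comparison 6.34% of all genes were called higher and 8.35% lower, with a median of 0.10. The complex I subunit Ndufa10 was higher by 0.87 in lymphomas compared to controls, and Ndufa5 by 1.06 compared to Tcf1-/- thymi (limma adjusted p = 0.000727 and 0.00252). These lists share no test with the 28 genes, and whether their medians differ from that of the 28 genes was not tested.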

How the data were processed

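The deposited values were log2 RMA signals of Affymetrix whole-genome mouse arrays, normalized and summarized by the authors per the labels and methods. A shift common to most genes is largely removed by RMA, so its true size is not visible here. The array medians still differ by 0.20 in Tcf1-/- compared to Tcf1+/- thymus. In lymphomas they differ by 0.06 compared to Tcf1+/- and by −0.14 compared to Tcf1-/- thymus. Of 45101 probe sets, 34958 carried 1 symbol, 932 several and 9160 none, besides 51 controls without a symbol, and a gene was represented by its brightest probe set on average. Groups came from sample titles, and the 3 pairs of groups were each fitted with limma 3.58.1 in R 4.3.3 (lmFit, eBayes, Benjamini-Hochberg). Summaries used Python 3.11.15 and SciPy 1.17.1. On simulated data with 200 changed genes, a log2 change of 1 was recovered for 48% (Tcf1-/- compared to Tcf1+/-), 67% (lymphoma compared to Tcf1+/-) and 54% (lymphoma compared to Tcf1-/-). Members and lists were chosen with earlier results of these data known. Mice with the same number in the lymphoma and control groups deviated together (r = 0.25 to 0.62 over genes), and mice 1 and 2 of both groups are the arrays that stand apart. Tumors 2, 4 and 5 correlated more with a control of another number, so the number is not known to pair the mice. The blocked fit is given beside results whose call it changed. Every member is named, and the value of every mouse without a tumor, and the lowest, median and highest lymphoma, are given for members called without overlap of the groups and for Gapdh, Ldha, Hk2 and Slc2a1. Genes of other lists were named by size, up to 4 a list. Precision is limited by the number of arrays.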

Additional observations from a re-analysis of the deposited data

Results flagged for a closer look

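Of 84 groups of mice examined, over 28 genes, 3 held a mouse far from the rest by Dixon's ratio, and chance alone gives about 1 in 20. Hk2 was 7.25 in tumor 5, and the next lymphoma was at 8.38. Pfkfb2 was 7.27 in tumor 2, from the set of 4 arrays, compared to 6.44 in tumor 1 and lower values in the other 6. Pgd was 10.04 in Tcf1-/- mouse 4, and the next Tcf1-/- thymus was at 11.06; this mouse was also the lowest of its group on the other 3 probe sets of Pgd.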

How the results depend on the processing

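In Tcf1-/- compared to Tcf1+/- thymus, 3 of the 28 genes were called; 5 without the 4 arrays that stand apart, 6 with the array set as a block, 1 with the replicate block (mouse number, whose samples share only a number here; 3 in the same mice without the block), 1 with an absolute log2 fold change of at least 1, and 0 of 18 with the second brightest probe set (limma; 4 at an unadjusted p under 0.05). An exact Mann-Whitney U test called 0 there, and 0 of all 13756 genes, after Benjamini-Hochberg, so its 0 says nothing about the 28 genes (5 of them at an unadjusted p under 0.05; limma 8). In lymphomas compared to controls, 9 were called; 5 without the 4 arrays, 14 with the array set as a block (13 higher, 1 lower), 5 at the fold threshold and 3 of 18 on the second probe set; the replicate block gave 10, and 6 in the same mice without it. In lymphomas compared to Tcf1-/- thymus, 4 were called; 2 with the replicate block, 1 with the Y-linked covariate and 1 on the second probe set. Calls over all 13756 genes moved with these settings. In the first comparison they went from 2037 to 3040 without the 4 arrays, 3418 with the array set as a block, 1257 with the replicate block and 1327 at the fold threshold. In lymphomas compared to controls they went from 1747 to 1572, 3752, 1784 and 853 in the same order, and in lymphomas compared to Tcf1-/- thymus from 2020 to 584 with the replicate block and 387 with the Y-linked covariate. On the second probe set, 524, 528 and 642 of 7925 genes were called. Leaving out 1 mouse gave 2 to 4, 6 to 11 and 3 to 6 calls. The mean of the genes differed by 0.11, 0.45 and 0.33 in the same order, and by 0.07 to 0.16, 0.40 to 0.49 and 0.29 to 0.38 without 1 mouse. Subtracting array medians gave −0.087 and 0.47 in the first and last; the array medians differ by 0.20 and −0.14. The second probe set gave 0.24 and 0.11 in the lymphoma comparisons, and the 4 arrays alone 0.69 (added after the data were seen, as were the same-mice fits). No call of a member changed its direction in the alternatives run, and other calls that the replicate block changed in lymphomas compared to controls are given beside their genes. Of 2204 estimates of single genes, 67 lost and 41 gained a call. A further 115 were classed as moved without a change of call, and 1981 as the same. Which cause lies behind these shifts was not tested.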
